A study of Mus musculus with 2 samples.

Results

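Chemokines are small secreted proteins that direct the movement of leukocytes, and the cells that respond to them carry heptahelical receptors coupled to inhibitory G proteins. The ligands fall into the CC, CXC, CX3C and XC families after the spacing of their first cysteines, and most receptors bind several ligands of 1 family. In injured kidney, tubular cells and leukocytes themselves are known sources of chemokines, and monocytes, neutrophils, T cells and dendritic cells are known to follow them into the tissue. Here the members are every gene whose symbol carries a CC, CXC, CX3C or XC ligand or receptor name with a number, or the name of an atypical chemokine receptor (Ackr), apart from Cxcl9, Cxcl10, Cxcl12, Cxcr4 and Ackr3. The choice was made by symbol and not by a measured value. It took 61 of the 32285 genes in the count tables, of which 41 are ligands, 17 are receptors and 3 are atypical receptors. A total of 51 had at least 1 unique molecular identifier (UMI, the tag that stands for 1 captured RNA molecule) in the kept cells, 43 had 100 or more, and 8 had fewer. No UMI was counted for the other 10, which are Ccl26, Ccl27b, both entries each of Ccl21b and Ccl21c, and further entries of Ccl19, Ccl21a and Ccl27a on unplaced contigs. Near-identical copies of this kind share reads, so Ccl19, Ccl21a and Ccl27a are uncertain as counts.

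Single-cell RNA was measured by the 10X Chromium method in the injured kidney of 1 Cre- mouse and 1 PHDTiEC mouse, taken 14 days after the artery of 1 kidney had been clamped for 25 minutes. The PHDTiEC mouse carried Cdh5-CreERT2 together with homozygous floxed alleles of Phd1, Phd2 and Phd3, so that a tamoxifen-inducible Cre under an endothelial promoter is meant to inactivate the 3 prolyl hydroxylases that mark hypoxia-inducible factor for decay. The control is named as a Cre- littermate, and whether it carried the floxed alleles is not given in the sources used here. Mice of 8 to 10 weeks received 4 doses of 3 mg tamoxifen, begun the day after injury. Each genotype had 1 library, so differences could not be set against a spread between mice and carry no p-value, and every interval below is a 95% interval that covers counting error only.

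The libraries held 136004367 and 146758812 UMIs, and 8548 and 9309 barcodes passed the cell filter, with medians of 7500 and 7898 UMIs. Of these barcodes, 28 occurred in both libraries, which is 0.328% and 0.301% of each. The cells fell into 43 clusters, grouped into 28 classes by marker genes and 10 clusters left unnamed, and 26 classes had 20 or more cells in each library. A level called highest below is the highest of these 26, and the 2 smaller classes, migratory DC-like and pDC-like cells, are given where they stood above it. A name such as TAL-like (thick ascending limb) stands for a cluster led by the markers of that cell type, with PT for proximal tubule, DCT for distal convoluted tubule, CD for collecting duct, IC for intercalated cell, and mREC and cREC for medullary and cortical renal endothelial cell. The Retnla macrophage-like cluster was an exception, where the macrophage list ranked second, behind an erythroid list with 0 of 5 markers detected. All 10 macrophage markers were detected there, but none was among its 10 leading genes. The member genes were kept out of the genes used for clustering. None of the floxed genes was lower in the endothelial cells (mREC-like, cREC-like and 1 unnamed cluster with both endothelial and mural genes, such as Cldn5 and Rgs5) of the library labelled PHDTiEC: Egln1 stood at 67.9 CPM (UMIs of the gene per 1000000 UMIs of the class) in the Cre- library and at 186 CPM in the other, Egln2 at 38.7 and 40.1 CPM, and Egln3 at 22.8 and 147 CPM. Counts per gene do not show the loss of an exon, so directions below are those of the library labelled PHDTiEC.

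The upstream sequences of 4 epithelial and myeloid ligands are shown first because 3 of them are neighbours on chromosome 5 that share a receptor and a motif, while Cxcl1 had its highest level in another cell class than Cxcl2 and Cxcl3. The 110 bases before the transcription start are given from RefSeq on GRCm38.p6, all on the plus strand, and capitals mark matches to the kB consensus, the binding motif of NF-kB.
Cxcl1: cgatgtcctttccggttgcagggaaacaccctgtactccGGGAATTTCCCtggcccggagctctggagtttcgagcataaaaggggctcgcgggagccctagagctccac
Cxcl2: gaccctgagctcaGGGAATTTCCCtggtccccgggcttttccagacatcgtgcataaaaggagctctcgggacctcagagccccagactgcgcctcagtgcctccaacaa
Cxcl3: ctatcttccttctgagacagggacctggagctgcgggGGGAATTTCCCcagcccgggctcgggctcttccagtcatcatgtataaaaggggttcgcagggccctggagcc
Ccl20: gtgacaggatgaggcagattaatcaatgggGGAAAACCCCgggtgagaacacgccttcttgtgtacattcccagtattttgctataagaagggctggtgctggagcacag
These lie at chr5:90891135-90891244, chr5:90903789-90903898, chr5:90785991-90786100 and chr1:83116656-83116765. Cxcl1, Cxcl2 and Cxcl3 held the same run of 11 bases, GGGAATTTCCC, which reads as the motif on both strands and starts at base -71, -97 and -73 from the transcription start. This run was present in 14 of the 32851 upstream windows of 250 bases in the table, or 0.0426%, and in 3 of the 40 member symbols with an entry. The run was taken from Cxcl1 itself, so its presence among the members was fixed beforehand. Any match to the consensus on either strand was found in 10 of the 47 windows of these 40 symbols, beside 7.25% of all windows. The match in Ccl20 was GGAAAACCCC, starting at base -80. A match is a description of the letters and not of a bound site.

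The chromosome 5 genes bind Cxcr2, the receptor that draws neutrophils to a CXC gradient, and their class patterns differed. Cxcl2 was counted at 17310 CPM in the neutrophil-like cells of the Cre- library and at 17420 CPM in those of the other, where 22.6% and 22.9% of its UMIs lay, so its level there was alike in both mice. Cxcl3 was also highest in neutrophil-like cells, at 467 and 250 CPM, a log2 ratio of -0.90 (-1.10 to -0.70). Cxcl1, the neutrophil attractant once called KC, was highest in injured PT-like cells, at 697 and 504 CPM. Those cells held 38.6% and 27.9% of its UMIs, with no more than 6.22% from a single cell. Cxcl5 was highest in thin limb-like cells of the Cre- library at 134 CPM and in CD-like cells of the other at 157 CPM, and 1 cell gave up to 54.0% of its thin limb-like UMIs. Cxcl15, which lies between them, was found in urothelial-like cells at 37.7 and 47.1 CPM from 18 and 40 UMIs. Cxcr2 itself was highest in neutrophil-like cells, at 915 and 823 CPM with 84.3% and 82.5% of its UMIs there. Its relative Cxcr1 followed, at 48.9 and 49.6 CPM with 88.1% and 73.9% of its UMIs in that class.

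**Figure D1:**
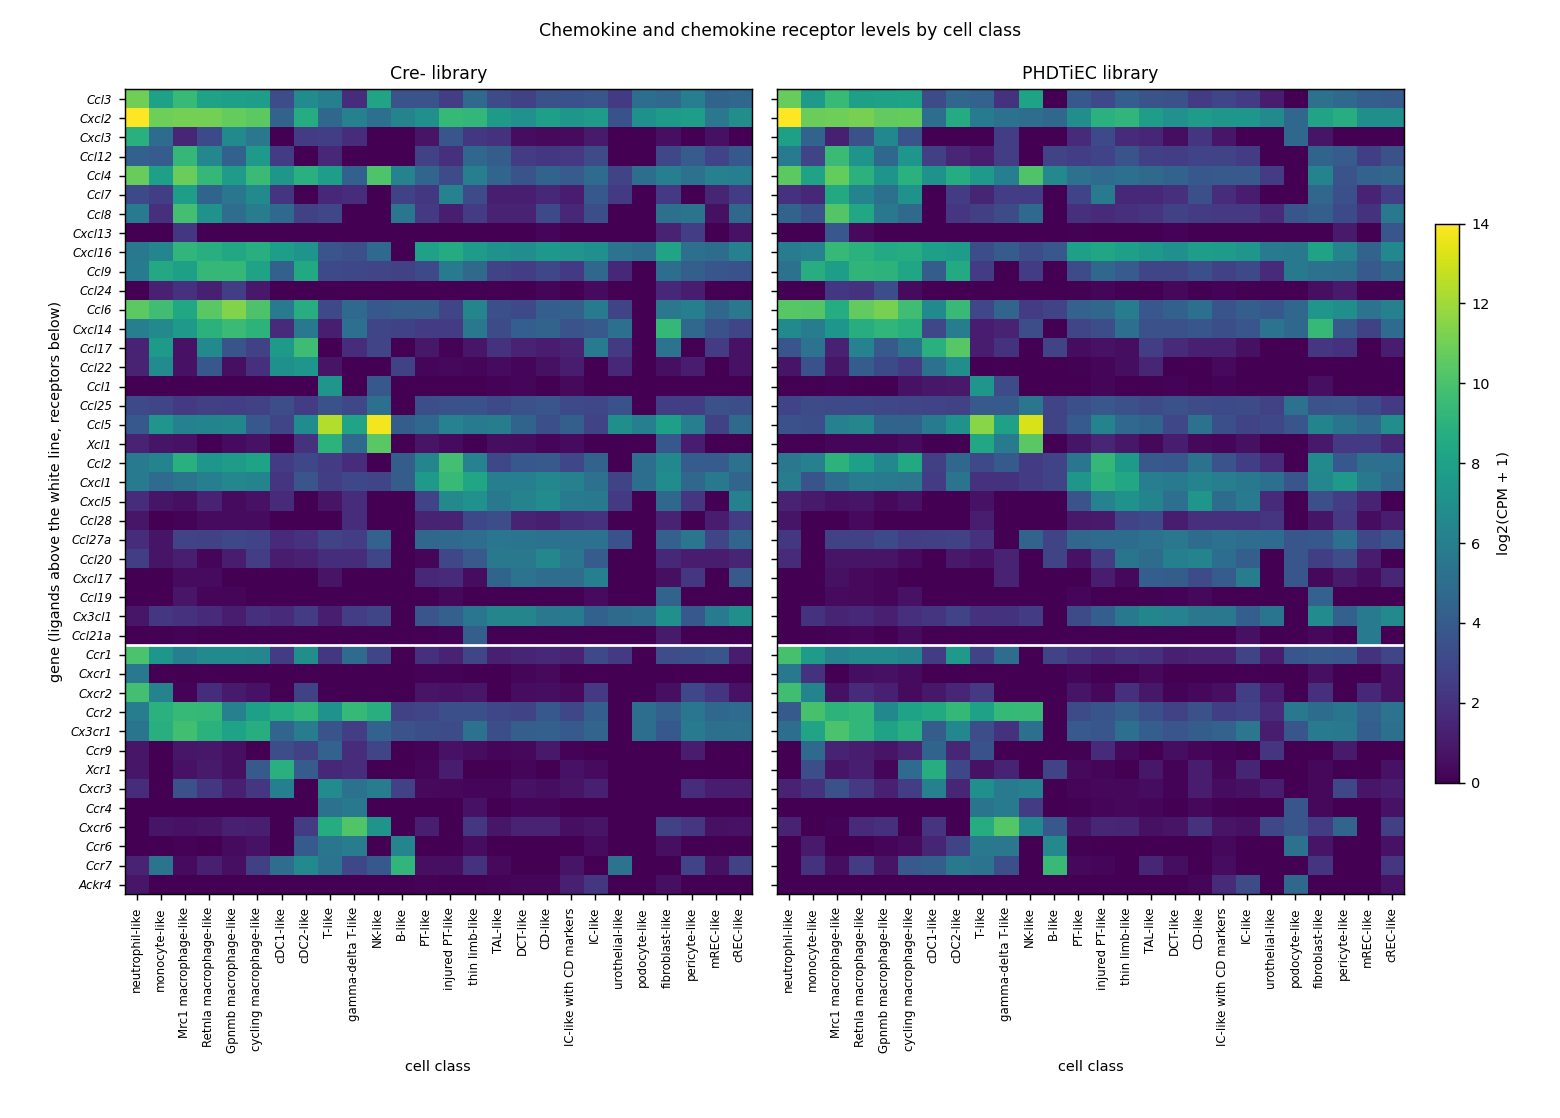
Levels of 42 genes with 100 or more UMIs (rows, ligands above the white line) in 26 cell classes (columns), as log2(CPM + 1) of the class sum, for the Cre- library on the left and the PHDTiEC library on the right. The brightest cell in both is Cxcl2 in neutrophil-like cells, at 17310 and 17420 CPM, and the rows follow much the same classes in both panels.

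The 34 genes with the same leading class in both libraries cover most of the family, and the pattern of each gene over the 26 classes was compared between the libraries as a description. Pearson's r of log2(CPM + 1) had a median of 0.855 over the 43 genes and ranged from -0.05 for Ccl21a to 0.969 for Ccl19. The points share classes of unequal depth, so no p is given. The 9 genes whose leading class changed were Ackr4, Cxcl14, Ccl9, Cxcl5, Ccl27a, Ccl21a, Cxcl13, Ccr2 and Ccr9. In immune classes lay 68.8% and 70.5% of the ligand UMIs and 89.4% and 89.0% of the receptor UMIs. Tubular classes held 24.6% and 21.9% of the ligand UMIs and 5.27% and 5.30% of the receptor UMIs, a smaller part of the receptors than of the ligands in both libraries.

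The CC ligands of chromosome 11 lie in 2 groups of genes. In the first, Ccl2, Ccl7 and Ccl12 are ligands of Ccr2, the receptor by which monocytes leave the marrow, and Ccl8 is a ligand of Ccr8 in the mouse. Ccl8 was highest in Mrc1 macrophage-like cells (a macrophage cluster led by Mrc1), at 894.5 CPM in the Cre- library and 1222 CPM in the other, with 79.3% and 76.0% of its UMIs there. Ccl12 was highest in the same class, at 641.5 and 756 CPM with 71.7% and 72.9% of its UMIs. Ccl7 was highest there too, at 229.5 and 356.5 CPM with 53.4% and 60.3% of its UMIs. No cell gave more than 3.635% of the UMIs of these 3 genes in that class. Ccl2 differed from its neighbours, as it was highest in injured PT-like cells at 913 and 643 CPM, with the Mrc1 macrophage-like cells next at 464 and 539 CPM. Ccl1, a Ccr8 ligand of activated T cells, was highest in T-like cells at 159 and 156 CPM, where 1 cell gave 41.0% of its Cre- UMIs and 35.6% of those in the other library. T-like cells held 95.4% and 49.2% of its 261 and 543 UMIs, and unnamed clusters held 1.15% and 47.7%. Ccl11, an eosinophil attractant, had 14 and 8 UMIs in all, mostly in fibroblast-like cells.

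The second group on chromosome 11 holds Ccl3, Ccl4, Ccl5, Ccl6 and Ccl9, several of them ligands of Ccr1. Ccl3 was highest in neutrophil-like cells at 2007 and 1745 CPM, and Ccl4, its neighbour, in Mrc1 macrophage-like cells at 1790 and 1671 CPM. Neutrophil-like cells also held Ccl4, at 1716 and 1439 CPM. Ccl6, a CC ligand of mouse myeloid cells, was highest in Gpnmb macrophage-like cells at 2578 and 2222 CPM with 43.9% and 40.2% of its UMIs. Ccl9 was highest in Gpnmb macrophage-like cells of the Cre- library at 644 CPM and in Retnla macrophage-like cells of the other at 577.5 CPM. Those classes did not stand apart for Ccl9, since the Retnla macrophage-like cells of the Cre- library were at 635 CPM. Ccl5, a product of cytotoxic lymphocytes, was highest in NK-like cells at 13960 and 9202 CPM. The larger T-like class, at 5424 and 2954 CPM, held 40.1% and 33.8% of its UMIs.

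Receptors of these CC ligands were found in myeloid and lymphoid classes. Ccr1 was highest in neutrophil-like cells at 1068 and 975 CPM, with 32.3% and 28.2% of its UMIs there. Ccr3, the eosinophil receptor, had 20 and 39 UMIs in all. Ccr2 changed its leading class, from gamma-delta T-like cells at 671.5 CPM in the Cre- library to monocyte-like cells at 985 CPM in the other. In the Cre- library its levels in gamma-delta T-like, Mrc1 macrophage-like and Retnla macrophage-like cells lay close together, at 671.5, 661 and 631 CPM.

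Ccl17 and Ccl22 are ligands of Ccr4, a receptor of type 2 helper and skin-homing T cells. Ccl17 was highest in cDC2-like cells (conventional dendritic cells led by Cd209a and Clec10a), at 810 and 1292 CPM, a log2 ratio of 0.67 (0.53 to 0.82). Ccl22 was highest in the same class at 160 and 119 CPM. Their receptor Ccr4 was highest in gamma-delta T-like cells at 49.8 and 56.3 CPM. Xcr1, the receptor that marks cross-presenting dendritic cells, was at 481 and 424 CPM in cDC1-like cells with 79.0% and 74.0% of its UMIs. Its ligand Xcl1 was highest in NK-like cells, at 1368 and 1362 CPM. The migratory DC-like cluster, with 37 and 18 cells, was too small to compare, but its levels stood above those classes. It had Ccl22 at 1537 and 1329 CPM, with 50.9% and 31.1% of all Ccl22 UMIs, and Ccl17 at 1287 and 2109 CPM.

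Among the T and B cell receptors, Cxcr6, which holds T cells in tissue, was highest in gamma-delta T-like cells at 1158 and 1256 CPM. Its membrane-bound ligand Cxcl16 was highest in Mrc1 macrophage-like cells at 585 and 652 CPM, with only 17.8% and 18.4% of its UMIs there. Cxcr3 was highest in T-like cells at 105 and 129 CPM. Ccr7, the lymph node homing receptor, was at 584 and 709 CPM in B-like cells, and the few migratory DC-like cells stood above them at 1928 and 2630 CPM, with 60.0% and 46.1% of its UMIs. Ccr6 was highest in B-like cells at 82.6 and 96.6 CPM, from 15 UMIs in each library. Cxcr5, the follicle homing receptor, had 38 and 29 UMIs in all and was likewise highest in B-like cells. Its ligand Cxcl13 had 43 and 159 UMIs, and 1 cell gave 67.4% and 49.7% of them. Ccr9, the gut homing receptor, had its highest level in pDC-like cells, of which there were 7 and 20, at 1672 and 1346 CPM with 38.2% and 50.9% of its UMIs. Ccr10 and Ccr8 had 22 and 30 and 11 and 11 UMIs in all.

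Cx3cl1, the membrane-bound ligand of Cx3cr1, was highest in fibroblast-like cells at 130 and 108 CPM, close to cREC-like cells at 126 and 103 CPM. Cx3cr1, the receptor that marks resident macrophages, was highest in Mrc1 macrophage-like cells at 881 and 1050 CPM with 47.0% and 48.9% of its UMIs. Cxcl14 was highest in Gpnmb macrophage-like cells of the Cre- library at 733.5 CPM and in fibroblast-like cells of the other at 653 CPM. Fibroblast-like cells of the Cre- library were at 652 CPM, so Cxcl14 had the same level in that class in both mice. Ccl19, a Ccr7 ligand of stromal cells, was also highest in fibroblast-like cells, at 21.6 and 20.1 CPM.

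Along the tubule, Ccl28, a mucosal ligand of Ccr10, was highest in TAL-like cells at 8.88 and 7.45 CPM. Ccl20, the ligand of Ccr6, was highest in CD-like cells at 88.1 and 80.0 CPM, but 1 cell gave 34.9% and 56.3% of those UMIs. Cxcl17, a mucosal chemokine, was highest in IC-like cells at 63.75 and 60.25 CPM. Ackr4, a scavenger of Ccl19 and Ccl21, had 43 and 65 UMIs in all, and IC-like cells with CD markers held 55.8% and 69.2% of them. Ccl27a was at like levels along the nephron, with TAL-like cells at 44.65 CPM on top in the Cre- library and DCT-like cells at 46.7 CPM in the other. Ccl25, a thymic and gut ligand of Ccr9, was highest in NK-like cells at 33.05 and 44.1 CPM, which rests on 5 and 10 UMIs. Ccl27a overlaps Il11ra1, Ccl25 overlaps Elavl1, Cxcl17 overlaps 4732471J01Rik and Ackr4 overlaps Acad11 on the opposite strand. Further members overlap a gene on the opposite strand, among them Ccl2, Ccl6, Cxcl16 and Cxcr6. Cx3cr1 overlaps genes on both strands, with Gorasp1 among those on its own. The strand setting of the counting is not given in the sources used here.

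A few members came from almost single cells. Ccl21a, which lymphatic endothelium makes, had 95 and 137 UMIs, and 94.7% and 96.4% of them lay in 1 cell of each library. In the Cre- library that cell was thin limb-like, with 90 UMIs of Ccl21a among 65054 UMIs, and in the other it was mREC-like, with 132 among 18965. Both cells, looked at after their values were seen, also held Prox1, a transcription factor of lymphatic endothelium, with 2 and 6 UMIs. Prox1 was also among the leading genes of the DCT-like cluster. The endothelial markers Pecam1 and Cdh5 had 1 and 0 UMIs in the Cre- cell and 14 and 10 in the other. The Cre- cell held 199 UMIs of the macrophage gene C1qa and the other none. Ackr2, a scavenger of CC ligands, had 9 and 67 UMIs in all and was highest in cREC-like cells at 5.31 and 22.8 CPM, and Ackr1 had 4 and 2. Ccl24, an eosinophil attractant of macrophages, was highest in Gpnmb macrophage-like cells at 5.14 and 9.13 CPM, with up to 91.3% of those UMIs from 1 cell.

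The comparison of the genotypes was made class by class, for member and class pairs with at least 50 UMIs over both libraries, and a pair was counted as past 2-fold where the log2 ratio of its CPM (PHDTiEC over Cre-) was at least 1 in size. Of 415 pairs, 84 were past 2-fold, or 20.2%, beside 1.79% of all gene and class pairs. In all 84 the counting interval left out 0, which the limits of 50 UMIs and 2-fold nearly fix beforehand. The interval therefore adds no support to a pair. They ran both ways, with 44 higher and 40 lower in the library labelled PHDTiEC, and the median log2 ratio of the 415 pairs was -0.01. Since the class sums count molecules of many cells or of 1, the share of each pair's UMIs from its top cell was set beside the ratio. The median top cell share, taken in the library where it was higher, was 20.0% over the member pairs and 4.97% over all gene and class pairs.

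Pairs past 2-fold were mostly those with a high top cell share. Where the top cell gave under 10% of the UMIs, 1 of 124 member pairs was past 2-fold, or 0.806%, beside 0.464% of all pairs with so small a share. From 10% up to 25% it was 10 of 121, or 8.26%, beside 5.21% of all pairs. At 25% or more it was 73 of 170, or 42.9%, beside 25.8% of all pairs. Of the 84 member pairs past 2-fold, 73 therefore had a cell that carried 25% or more of the sum in 1 library. With the top cell of each gene left out in each class and library, 60 of the 369 pairs left were past 2-fold, or 16.3%, beside 1.69% of all pairs, and 48 of the 84 were still past it the same way. With the 8% of barcodes of highest doublet score removed, 38 of the 84 still were, and 16 had turned their sign, 7 of these with 50 or more UMIs left.

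**Figure D2:**
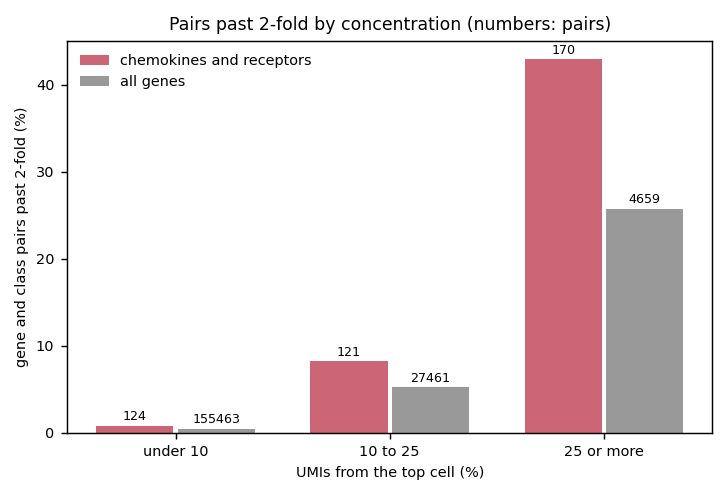
Percentage of gene and class pairs past 2-fold (vertical axis) by the share of the pair's UMIs that came from its top cell (horizontal axis), for the member genes in red and all genes in grey, with the number of pairs above each bar. The member bars stand at 0.806%, 8.26% and 42.9%, and the all-gene bars at 0.464%, 5.21% and 25.8%.

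The class where a gene had its highest level over both libraries was looked at apart. Of 39 such pairs with 50 or more UMIs, 3 were past 2-fold, or 7.69%, and in the remaining 376 pairs 81 were, or 21.5%, both beside 1.79% of all gene and class pairs. The median size of the log2 ratio in the leading class was 0.21, and 19 genes were higher and 20 lower. The 3 were Ccl21a in mREC-like cells, Cxcl13 in Mrc1 macrophage-like cells and Ccr2 in monocyte-like cells. Ccl21a went from 0 to 132 UMIs there and was at least 30.3-fold higher in the library labelled PHDTiEC, reckoned against 3 counts, all from the 1 cell described above. Cxcl13, a B cell attractant, was at 3.86 and 13.2 CPM, and 1 cell gave 87.9% and 62.2% of those UMIs. With the barcodes of highest doublet score removed its log2 ratio was 0.36.

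**Figure D3:**
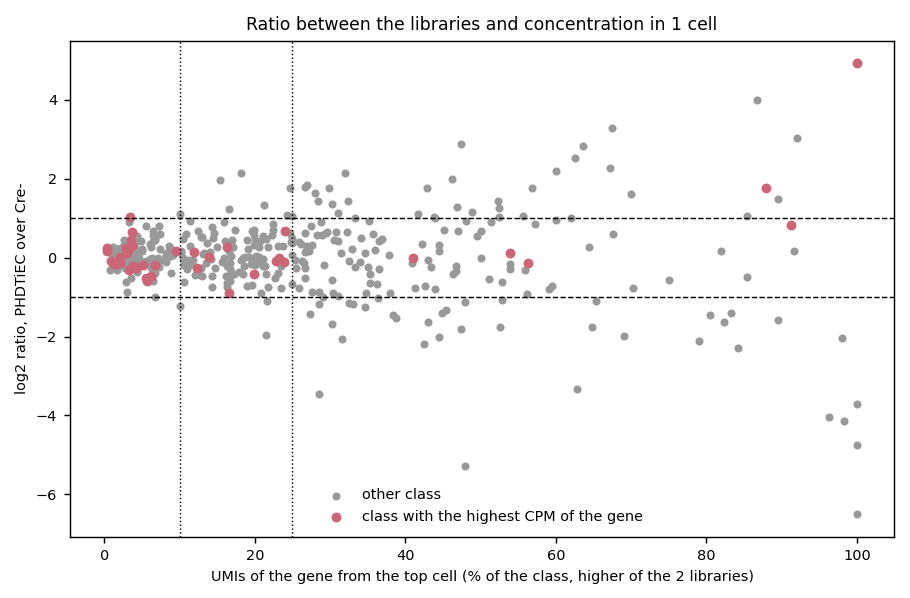
The log2 ratio between the libraries (vertical axis) against the share of UMIs from the top cell (horizontal axis, in the library where it was higher) for 415 member and class pairs, with the class of highest level of each gene in red. Dashed lines mark 2-fold and dotted lines 10% and 25%; the 3 pairs with 0 UMIs in 1 library are drawn at their bound, and 1 of the 124 points left of 10% lies past 2-fold.

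Ccr2 in monocyte-like cells was the single pair past 2-fold with less than 10% of its UMIs from any cell. It was at 486 CPM in the 241 cells of the Cre- library, with 671 UMIs, and at 985 CPM in the 159 cells of the other, with 936 UMIs. The log2 ratio was 1.02 (0.88 to 1.17). Its top cell gave 3.43% and 2.78% of these UMIs, and without that cell the ratio was 1.04. Markers of the class moved too: of the monocyte list, Ly6c2 was at 332 and 542 CPM, Vcan at 58.6 and 143 CPM and F13a1 at 176 and 345 CPM. Ace and Treml4, which mark patrolling monocytes, went the other way, from 379 to 223 CPM and from 300 to 142 CPM. All 9 markers of the list were detected in both libraries, with sums of 5225 and 5924 CPM. Their part in the Ccr2 result was not tested. In the 4 macrophage-like classes Ccr2 went both ways and stayed under 2-fold, with 661 and 531 CPM in the Mrc1, 631 and 605 CPM in the Retnla, 67.4 and 90.75 CPM in the Gpnmb and 242 and 277 CPM in the cycling macrophage-like cells.

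The other 5 members past 2-fold in monocyte-like cells, of 19 compared and beside 2.01% of all genes, were lower in the library labelled PHDTiEC and rested on few cells. Ccl17 and Ccl22 were at log2 ratios of -2.30 and -3.32 and Ccr7 at -3.71, all 3 of them genes with high levels in migratory DC-like cells. The migratory DC marker list was at 160 and 68.4 CPM in monocyte-like cells, and its part was not tested. Their top cells gave up to 84.2%, 62.8% and 100% of the UMIs. Ccl5 was at -4.04, where 1 Cre- cell gave 96.3% of the UMIs, and without it the ratio was 0.12. Cxcl1 was at -1.32, and its sign turned when the mean over cells was used.

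**Figure D4:**
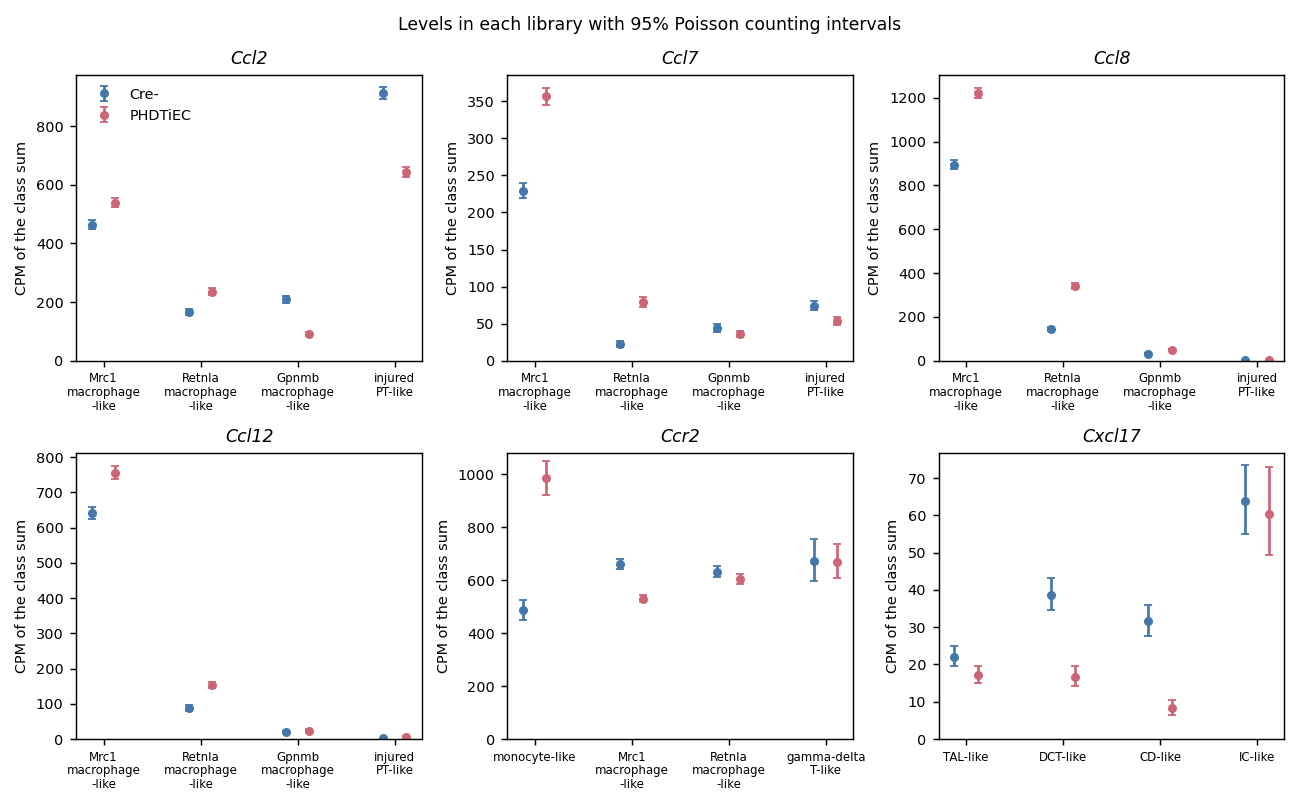
CPM of 6 genes (vertical axes, each from 0) in 4 cell classes each (horizontal axes), for the Cre- library in blue and the PHDTiEC library in red, with bars for 95% Poisson counting intervals of 1 library each. Ccl7 and Ccl8 in Retnla macrophage-like cells stood at 22.1 and 79.35 CPM and at 144 and 340 CPM, and Cxcl17 in CD-like cells at 31.7 and 8.20 CPM.

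In macrophage-like classes the Ccr2 ligands and Ccl8 were higher in the library labelled PHDTiEC in the Mrc1 and Retnla clusters. In Retnla macrophage-like cells Ccl7 was at 22.1 CPM from 32 cells of the Cre- library and at 79.35 CPM from 83 cells of the other, a log2 ratio of 1.84 (1.56 to 2.13). Ccl8 in these cells was at 144 and 340 CPM, a log2 ratio of 1.24 (1.12 to 1.35). These 2 were the members past 2-fold of 22 compared there, beside 0.758% of all genes, and both stayed past it without their top cell, at 2.18 and 1.16. Ccl12 and Ccl2 were at log2 ratios of 0.81 and 0.51 in the same cells and did not reach 2-fold. In Mrc1 macrophage-like cells the ratios of Ccl7, Ccl8, Ccl12 and Ccl2 were 0.64, 0.45, 0.24 and 0.22, and Cxcl13 was the 1 member of 22 past 2-fold, beside 0.829% of all genes. The macrophage marker list, with 10 of 10 markers detected in each library, summed to 14830 and 14360 CPM in the Retnla and to 21340 and 21470 CPM in the Mrc1 macrophage-like cells. The 12 dissociation genes, which tissue digestion is known to induce, summed to 7477 and 7403 CPM and to 13030 and 12980 CPM in these classes. Their part in the values of Ccl7 and Ccl8 was not tested.

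The Gpnmb and cycling macrophage-like cells did not follow this order. In Gpnmb macrophage-like cells 3 of 23 members were past 2-fold, beside 0.88% of all genes. Ccl2 was lower, at 209 and 91.8 CPM, and lay at a log2 ratio of -0.85 without its top cell. Ccl5 was lower at -1.99 and Ccl22 higher at 3.99, with up to 69.1% and 86.7% of their UMIs from 1 cell. In cycling macrophage-like cells 4 of 21 were past 2-fold, beside 1.79% of all genes. Ccl17 was higher at 2.88 and Ccr7 at 1.42, and Ccl8 and Cxcl3 were lower at -1.12 and -2.03. Without their top cells Ccr7 and Ccl8 lay at 0.99 and -0.53, under 2-fold, and Ccl17 at 3.13. Cxcl3 there turned its sign without its top cell, which had given 98.0% of the Cre- UMIs, as it did with the complexity filter. The neutrophil list, with 8 of 8 markers detected in each library, was at 968 and 55.8 CPM in these cells, lower where Cxcl3 was lower, and the macrophage list at 11040 and 8827 CPM. Their part was not tested.

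In neutrophil-like cells 3 of 17 members were past 2-fold, beside 0.997% of all genes, and none of the 3 had its highest level there. Ccr2 was lower at -2.06, from 73 and 19 UMIs. Ccl8 was lower at -1.41 and Ccl12 higher at 1.49, both with at least 83.3% of the UMIs of 1 library from 1 cell, and both turned their sign with the barcodes of highest doublet score removed. In cDC1-like cells 3 of 11 members were past 2-fold, beside 1.51% of all genes, with Ccl17 higher at 198 and 478 CPM and Ccl22 lower at 127.5 and 36.3 CPM. Both kept their side of 2-fold without the top cell, and Ccl5, at 3.02, had 92.1% of its UMIs from 1 cell of the library labelled PHDTiEC. In cDC2-like cells 2 of 16 were past it, beside 2.59% of all genes, with Ccl3 lower at -2.18 and Cxcl1 higher at 1.77. Of the 44 Cxcl1 UMIs of the library labelled PHDTiEC there, 56.8% came from 1 cell. Without the top cells Cxcl1 lay at 0.75 and Ccl3 at -1.84.

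Lymphoid classes held fewer such pairs. In T-like cells 2 of 13 members were past 2-fold, beside 1.15% of all genes, with Ccl3 lower at -1.64 and Cxcl2 higher at 1.05, the latter with 55.7% of its UMIs from 1 cell, without which its ratio was -0.01. None of 6 members was past it in NK-like cells, beside 1.7% of all genes, none of 6 in gamma-delta T-like cells, beside 1.6%, and not the 1 compared in B-like cells, beside 3.16%. Ccl5, the leading lymphocyte ligand, was at log2 ratios of -0.60 in NK-like cells and -0.88 in T-like cells.

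In the tubule the clearest pattern was that of Cxcl17. It was at 31.7 CPM from 86 CD-like cells of the Cre- library and at 8.20 CPM from 27 cells of the other, a log2 ratio of -1.95 (-2.37 to -1.55). In DCT-like cells it was at 38.7 CPM from 102 cells and at 16.7 CPM from 51, a log2 ratio of -1.21 (-1.51 to -0.93). TAL-like cells were at 22.1 and 17.1 CPM and IC-like cells at 63.75 and 60.25 CPM, which did not reach 2-fold. No cell gave more than 21.5% of the Cxcl17 UMIs in CD-like or DCT-like cells, and both pairs stayed past 2-fold without their top cell. The differences between classes in this ratio were not tested.

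The other tubular pairs past 2-fold were mostly ligands of leukocytes. In CD-like cells 6 of 22 members were past 2-fold, beside 1.69% of all genes. Ccl2, Ccl5, Ccl6 and Ccl7 were higher at 1.33, 1.98, 1.02 and 2.20, and Ccl3 was lower at -1.17. With the barcodes of highest doublet score removed, Ccl2 and Ccl6 there stood at 0.38 and 0.24. Up to 46.2% of the Ccl5 and 60.0% of the Ccl7 UMIs came from 1 cell, without which both stayed past 2-fold. In DCT-like cells 5 of 21 members were past 2-fold, beside 1.77%. Ccl6 and Ccl8 were higher at 1.36 and 1.75, and Cxcl5 and Ccl5 were lower at -1.16 and -1.68. Without the barcodes of highest doublet score, Ccl6 and Ccl8 there stood at 0.93 and 0.69. The median of all genes there was itself shifted, at 0.11. In TAL-like cells it was 4 of 24 beside 1.49%, with Ccl2 and Ccl8 higher at 1.00 and 1.06 and Ccl5 and Ccl12 lower at -1.46 and -1.63. Ccl12 there turned to 0.56 without its top cell, which had given 82.4% of the Cre- UMIs. With the barcodes of highest doublet score removed, Ccl8 and Ccl12 in these cells turned their signs.

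PT-like cells had 0 of 21 members past 2-fold, beside 1.39% of all genes. In injured PT-like cells it was 4 of 20 beside 2.18%, with Ccl4, Ccl6 and Ccl12 higher at 1.75, 1.79 and 1.09 and Ccl9 lower at -1.10. Ccl6 there was at -0.13 with the barcodes of highest doublet score removed. The leading ligands of injured PT-like cells, Ccl2 and Cxcl1, were at -0.51 (-0.56 to -0.46) and -0.47 (-0.53 to -0.41), below 2-fold. In thin limb-like cells it was 5 of 22 beside 0.892%. Ccl2 was higher there, at 72.1 and 196 CPM, and remained so without its top cell, at 1.32. Ccl20 was higher at 1.60, although its sign turned with the mean over cells, and Ccl7, Ccl12 and Ccl21a were lower, at -2.11, -1.10 and at least 27.05-fold. The signs of Ccl7 and Ccl12 turned with the barcodes of highest doublet score removed.

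IC-like cells had 7 of 16 members past 2-fold beside 1.36% of all genes. Ccl2, Ccl4, Ccl6, Ccl9, Ccl17 and Ccr2 were lower at -2.02, -1.07, -1.52, -1.76, -6.50 and -1.42, and Cx3cr1 was higher at 1.01. With the mean over cells the signs of Ccl6 and Ccr2 turned, as did those of Ccl2, Ccl4 and Ccl9 without the barcodes of highest doublet score and that of Cx3cr1 without its top cell. All 156 Ccl17 UMIs of the Cre- library lay in 1 cell. In IC-like cells with CD markers 2 of 26 were past it, beside 1.28%, with Ccl7 and Ccl8 higher at 1.03 and 1.07. In urothelial-like cells, 25 and 34 in number, 2 of 5 were past it, beside 5.48%, with Cxcl2 higher at 3.27 and Ccl5 lower at -4.15, where without its top cell it was at 0.27. The neutrophil list there was at 33.5 and 404 CPM, with 3 and 7 of 8 markers detected, and the injured PT list at 523 and 2797 CPM, with 4 and 6 of 7. The estimated share of free RNA was 8.21% and 48.3%, and the dissociation genes summed to 9329 and 16630 CPM. The free RNA share was estimated here from neutrophil, T and B cell markers. It is therefore not independent of the neutrophil list. All 4 values were higher where Cxcl2 was higher, and their part was not tested.

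Marker lists of leukocytes were read beside these tubular values. The macrophage list, with 10 of 10 markers detected, summed to between 226.5 and 1141 CPM in the 8 tubular classes of the Cre- library and between 295 and 1007 CPM in those of the other. In CD-like cells it was 457 and 405 CPM, in injured PT-like cells 226.5 and 324 CPM and in IC-like cells 752 and 742 CPM. No defining marker of that list was at 0 in these classes. The dissociation genes were higher in the library labelled PHDTiEC in several of the same classes, with sums of 9055 and 12650 CPM in DCT-like, 10540 and 12860 CPM in CD-like and 10650 and 12900 CPM in TAL-like cells, and lower in IC-like cells, at 13780 and 12490 CPM. The neutrophil list was at 95.59 and 27.87 CPM in CD-like cells, where Ccl3 was lower. The T cell list was at 20.51 and 29.01 CPM in CD-like cells, where Ccl5 was higher. It was at 30.68 and 18.8 CPM in DCT-like and at 19.76 and 19.54 CPM in TAL-like cells, where Ccl5 was lower. The NK list was at 0.6978 and 0.7567 CPM in CD-like, 1.378 and 1.343 CPM in DCT-like and 0.7833 and 0.5492 CPM in TAL-like cells. The part of these lists in the values of Ccl2, Ccl3, Ccl5, Ccl6, Ccl7 and Ccl8 was not tested.

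In mREC-like cells 6 of 13 members were past 2-fold beside 2.69% of all genes. Cxcl2 was higher, at 46.6 and 125 CPM, and stayed past 2-fold without its top cell, at 1.31. Ccl2 was higher at 15.7 and 34.8 CPM, where 1 cell gave 42.9% and 48.9% of the UMIs, and lay at 0.98 without it. Ccl5 was higher at 2.27 from 10 and 70 UMIs, and Cx3cr1 and Ccl4 were lower at -1.03 and -1.77. Up to 67.1% of the Ccl5 and 64.75% of the Ccl4 UMIs came from 1 cell. Without their top cells Ccl5 and Ccl4 lay at 1.39 and -0.58. The macrophage list summed to 569 and 410 CPM and the neutrophil list to 190 and 73.1 CPM in these cells. The NK list, with 0 and 5 of 8 markers detected, was at 0 and 3.48 CPM, and was higher where Ccl5 was higher. The T cell list, with 8 and 9 of 10 markers detected, was at 15.7 and 17.4 CPM. The part of these lists was not tested.

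In cREC-like cells 6 of 16 members were past 2-fold beside 3.38% of all genes. Ccl5, Cxcl14, Ccl9 and Ccl8 were higher at 2.13, 2.15, 1.25 and 1.04, Ccl4 was lower at -1.46, and Cxcl5 went from 119 UMIs to 0, at least 39.0-fold lower. Of the 119 Cxcl5 UMIs, 47.9% came from 1 cell. Ccl9 turned its sign with the barcodes of highest doublet score removed. The macrophage list was at 844 and 1361 CPM in these cells, the T cell list at 38.9 and 97.7 CPM and the NK list at 12.4 and 18.6 CPM. All were higher in the library labelled PHDTiEC, as were Ccl5, Ccl8 and Ccl9. The neutrophil list, at 226 and 107 CPM, and the injured PT list, at 1455 and 746 CPM, were lower in that library. Ccl4 and Cxcl5 were lower there too. The part of these lists was not tested. The estimated share of free RNA in this class was also the highest of the endothelial classes, at up to 100% and 77.5%. Cx3cl1, the ligand that endothelium is known to display, was at 126 and 103 CPM.

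In fibroblast-like cells 8 of 22 members were past 2-fold beside 2.54% of all genes. Cx3cr1, Ccl6, Ccl7, Ccl12 and Ccl25 were higher at 1.98, 1.77, 2.51, 1.63 and 1.10, and Ccl17, Ccl5 and Cxcl5 were lower at -3.47, -1.59 and -1.40, the last with its sign turned by the mean over cells. Ccl17 there was at 39.6 CPM from 25 cells and at 3.59 CPM from 12. With the barcodes of highest doublet score removed, Cx3cr1, Ccl12 and Ccl6 stood at 0.54, 0.17 and -1.68, and Ccl5 at 5.05. The macrophage list was at 1263 and 1386 CPM in these cells, and its part was not tested. In pericyte-like cells 3 of 10 were past it beside 4.26%, with Cxcl1 and Cxcl16 higher at 2.83 and 1.12 and Ccl3 lower at -1.25. The injured PT list was at 348 and 955 CPM in these cells, with 6 of 7 markers detected in each library and Krt20 at 0, so it was higher where Cxcl1 was higher. The neutrophil list was at 919 and 17.7 CPM. Their part was not tested, and Cxcl1 turned its sign with the barcodes of highest doublet score removed. Podocyte-like cells had no member with 50 UMIs.

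Of the 84 pairs, 21 stayed past 2-fold the same way under each of 9 other settings of cells, scaling and free RNA. They include Ccl7 and Ccl8 in Retnla macrophage-like cells, Ccr2, Ccl17 and Ccl22 in monocyte-like cells, Ccl17 and Ccl22 in cDC1-like cells, Cxcl17 in CD-like and DCT-like cells and Cxcl2 in mREC-like cells. They also include Ccl5 in CD-like, DCT-like, TAL-like and cREC-like cells, Cxcl5 in DCT-like cells, Ccl3 in T-like and cDC2-like cells and Ccl17 in cycling macrophage-like and fibroblast-like cells. The last were Ccl4 and Ccl9 in injured PT-like cells.

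Other genes of the pathway were counted the same way, to be read beside the 1.79% of all gene and class pairs past 2-fold. The 5 chemokine genes outside the rule with Pf4, Ppbp and Ccrl2 were past 2-fold in 25 of 110 pairs, or 22.7%, with 18 higher and 7 lower and a median top cell share of 17.1%. Cxcl12 in mREC-like cells was at 120 and 318 CPM and Cxcl9 at 0.562 and 39.1 CPM, the latter from 1 UMI in the Cre- library. The 16 genes of receptor signalling, from Gnai2 to Plcb3, were past 2-fold in 6 of 288 pairs, or 2.08%, with a median log2 ratio of 0.09. The 18 NF-kB target genes were past it in 12 of 307, or 3.91%, with 6 higher and 6 lower. The 12 dissociation genes were past it in 10 of 287, or 3.48%, with 8 higher and 2 lower. The median top cell share of these 3 lists was 5.53%, 7.02% and 4.97%, and that of the chemokine members was 20.0%. The difference between the lists was not tested.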

How the data were processed

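Single cells of injured kidney from 1 Cre- and 1 PHDTiEC mouse were sequenced by the authors as 10X Chromium 3' libraries, and the deposited count matrices hold UMI counts per gene and barcode, made by the authors with Cell Ranger on mm10 according to the submitters' processing notes. The Cell Ranger version is not given in the sources used here. Barcodes with 500 to 100000 UMIs, at least 200 genes and at most 50% mitochondrial UMIs were kept. Cells were clustered with Seurat 5.3.0 (R 4.3.3) at resolution 0.8 with the member genes left out of the variable genes, lymphoid and dendritic cell clusters were clustered again, and clusters were named by hand from marker lists. Counts were summed per class and library (Python 3.11.15) and scaled to CPM of the class. Groups were taken from the sample labels. Exact Poisson intervals of levels and exact binomial (Clopper-Pearson) intervals of ratios, both at 95%, cover counting error only, and a count of 0 was bounded at 3 counts per library. No test was possible with 1 library per genotype, and a pair was called past 2-fold at 50 or more UMIs over both libraries. Named with values were members with 100 or more UMIs, members past 2-fold in a class, the floxed genes and genes of the other lists. The members, lists and rules were chosen with earlier results of these data known. Doublets were kept in the main values; the automatic threshold of Scrublet (scanpy 1.11.5) marked 109 and 0 barcodes, so the alternative removed the 8% with the highest score, a limit set after the data were seen. Other alternatives were cell filters, clusterings, removal of the top cell, subtraction of free RNA and scalings, with TMM from edgeR 4.0.16. Free RNA was estimated from markers foreign to a class. These were neutrophil, T and B cell markers in tubular and urothelial-like classes, and tubular markers in the rest. The scripts were tested on simulated data. The values of 1 member are not reported here.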

Additional observations from a re-analysis of the deposited data

Results flagged for a closer look

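Of the 25 members past 2-fold in at least 1 class, 15 were past it in both directions, higher in the library labelled PHDTiEC in some classes and lower in others. The same share was not counted over all genes, so this cannot be read as a trait of the members. The differences between classes were not tested, since each genotype had 1 library. Among the ligands of Ccr2 and Ccr8, Ccl2 was higher in 4 classes and lower in 2, Ccl7 higher in 4 and lower in 1, Ccl8 higher in 5 and lower in 2, and Ccl12 higher in 3 and lower in 2. Among the ligands of the second chromosome 11 group, Ccl4 was higher in 1 class and lower in 3, Ccl5 higher in 4 and lower in 6, Ccl6 higher in 4 and lower in 1, and Ccl9 higher in 1 and lower in 2. The Ccr4 ligand Ccl17 was higher in 2 classes and lower in 3, and Ccl22 higher in 1 and lower in 2. Cxcl1 was higher in 2 classes and lower in 1, and Ccl21a higher in 1 and lower in 1. Of the receptors, Ccr2 was higher in 1 class and lower in 2, Ccr7 higher in 1 and lower in 1, and Cx3cr1 higher in 2 and lower in 1.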

How the results depend on the processing

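No paired analysis was possible because each group has 1 library. Of the 84 pairs past 2-fold, 38 were still past it the same way with the barcodes of highest doublet score removed, 34 and 53 at cluster resolutions 0.4 and 1.2, 48 with chemokine genes allowed among the variable genes and 48 without the top cell. With a minimum of 10 UMIs, 170 of 606 pairs were past 2-fold, and the share of all gene and class pairs at that minimum was not counted. The resolution and variable-gene settings change the classes themselves, with 17, 20 and 19 classes compared. The other settings of filters, scaling and free RNA left 58 or more of the 84, and a clustering named by leading marker lists, chosen after seeing the data, left 66. That rule left the Retnla macrophage-like cells unnamed, so their pairs could not be among the 66. Of those of the 84 with 50 or more UMIs left, the signs of 10 and 9 turned at resolutions 0.4 and 1.2, of 6 with chemokine genes allowed and of 5 in the clustering by marker lists. On unchanged classes, signs turned in 31 of 1014 values. With the doublet scores they were Ccl12 in TAL-like (0.93), neutrophil-like (-0.97) and thin limb-like cells (2.15), Ccl2, Ccl4 and Ccl9 in IC-like cells (0.34, 0.0181 and 0.76), Ccl5 in fibroblast-like and monocyte-like cells (5.05 and 0.66), Ccl6 in fibroblast-like and injured PT-like cells (-1.68 and -0.13), Ccl7 in thin limb-like cells (0.15), Ccl8 in TAL-like and neutrophil-like cells (-0.0146 and 0.73), Ccl9 in cREC-like cells (-0.92), Cxcl1 in pericyte-like cells (-1.05) and Cxcl2 in T-like cells (-0.23). Without the top cell they were Ccl12 in TAL-like and neutrophil-like cells (0.56 and -0.63), Ccl5 in cDC1-like, fibroblast-like, monocyte-like and urothelial-like cells (-0.0642, 0.38, 0.12 and 0.27), Cx3cr1 in IC-like cells (-0.14), Cxcl2 in T-like cells (-0.0075) and Cxcl3 in cycling macrophage-like cells (1.25). With the mean over cells they were Ccl20 in thin limb-like cells (-0.245), Ccl6 and Ccr2 in IC-like cells (0.16 and 0.17), Cxcl1 in monocyte-like cells (0.49) and Cxcl5 in fibroblast-like cells (0.13). With the complexity filter Cxcl3 in cycling macrophage-like cells turned to 3.70. The cause was not tested. Depth limits the 8 members with under 100 UMIs, for which no ratio is given, although Cxcl15 in urothelial-like cells was among the 415 pairs compared.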
